A study of Mus musculus with 20 samples.

Results

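The glutathione transferases and a set of genes known as targets or regulators of the transcription factor NRF2 were followed. The RNA was labelled as that of adipocytes from Olfm2 knockout (KO) and wild-type (WT) mice. The members were taken by gene symbol: every cytosolic, mitochondrial and microsomal glutathione transferase of the alpha, kappa, mu, omega, pi, theta, zeta and Mgst families, which gave 24 genes, and 14 genes named one by one, of which 13 had a named probe. G6pdx had none here. Together 37 of the 19505 genes tested were members, each with 1 probe, and Alb was read beside them as a check. The arrays fell into 4 groups of 5, named here by the depot label and the genotype: sc KO, sc WT, g KO and g WT. The labels describe the cells as adipocytes differentiated in culture from adipose tissue of Olfm2 knockout or wild-type mice. Some arrays also carried high hepatocyte, macrophage, lymphocyte or skeletal muscle signals, given below, whose origin was not tested. The sources used here give no knockout allele, age or treatment. The labels do not say whether samples of a group were separate cultures or animals, so p-values refer only to the spread among these samples, which may be technical.

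Glutathione transferases join the tripeptide glutathione to reactive, fat-soluble compounds such as lipid aldehydes, which makes these soluble and less harmful, and fat cells, which store and oxidise lipid, form such aldehydes steadily. NRF2, encoded by Nfe2l2, is held and marked for breakdown by KEAP1 in unstressed cells, and on oxidative or electrophilic stress it enters the nucleus and binds antioxidant response elements before genes for glutathione synthesis, thioredoxin reduction, heme breakdown and several transferases. Transferase genes are also strongly expressed in liver, and Hmox1 in macrophages, so markers of both cell types are given beside the results.

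Antioxidant response elements share the letters TGACNNNGC or TGAGNNNGC, and both were searched on both strands in the 250 bases before each start that RefSeq gives on build GRCm38.p6. Of the 37 members 32 had such a window; Gsta4, Gstt2, Hmox1, Gclc and Gsr had none in the table. At least 1 of the motifs stood before 16 of these 32 genes (50.0%), against 27.1% of the 15691 genes with both a window and a named probe. Counted by window, since some genes have several starts, it was 39.5% of 43 windows of members. The share was 24.1% of the 19143 windows of genes with a named probe and 23.0% of all 32851 windows of the table. TGACNNNGC stood before 8 of the 32 members, against 12.2% of the genes with a probe, and TGAGNNNGC before 9 of them (28.1%), against 17.3%. They overlap with another motif: TGAGTCAGC, and the match GCTGAGTCA of TGACNNNGC on the opposite strand, hold the letters TGAGTCA to which AP-1 factors bind. The windows of 3 members that were higher in g KO arrays (Gsta3, Gstp1, Gstp2) and of 2 that were lower there (Prdx1, Srxn1) are printed here, 5′ to 3′ on the strand of the gene, with the motifs in capitals, to show that such letters stand before genes that moved in opposite directions.
Gsta3 (chr1:21240335-21240584, plus strand): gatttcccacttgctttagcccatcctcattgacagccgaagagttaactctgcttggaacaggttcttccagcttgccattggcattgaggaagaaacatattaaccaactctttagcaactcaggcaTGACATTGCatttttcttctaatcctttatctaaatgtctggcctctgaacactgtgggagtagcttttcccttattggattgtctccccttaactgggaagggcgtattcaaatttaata
Gstp1 (chr19:4037913-4038162, minus strand): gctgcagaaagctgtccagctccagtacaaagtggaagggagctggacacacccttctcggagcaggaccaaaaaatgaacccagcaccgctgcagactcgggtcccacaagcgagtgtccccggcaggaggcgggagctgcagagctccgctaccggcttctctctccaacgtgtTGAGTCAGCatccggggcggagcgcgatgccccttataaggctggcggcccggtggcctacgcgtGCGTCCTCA
Gstp2 (chr19:4042222-4042471, minus strand): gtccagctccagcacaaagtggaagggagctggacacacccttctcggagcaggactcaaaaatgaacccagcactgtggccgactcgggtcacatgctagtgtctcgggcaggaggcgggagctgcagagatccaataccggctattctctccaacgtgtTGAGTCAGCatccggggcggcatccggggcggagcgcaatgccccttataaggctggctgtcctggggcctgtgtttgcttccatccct
Prdx1 (chr4:116685349-116685598, plus strand): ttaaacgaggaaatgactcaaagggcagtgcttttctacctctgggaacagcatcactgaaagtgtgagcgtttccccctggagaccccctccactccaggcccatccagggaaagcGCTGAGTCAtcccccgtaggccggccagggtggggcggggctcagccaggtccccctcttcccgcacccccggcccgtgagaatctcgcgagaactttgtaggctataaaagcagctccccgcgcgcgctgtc
Srxn1 (chr2:152105274-152105523, plus strand): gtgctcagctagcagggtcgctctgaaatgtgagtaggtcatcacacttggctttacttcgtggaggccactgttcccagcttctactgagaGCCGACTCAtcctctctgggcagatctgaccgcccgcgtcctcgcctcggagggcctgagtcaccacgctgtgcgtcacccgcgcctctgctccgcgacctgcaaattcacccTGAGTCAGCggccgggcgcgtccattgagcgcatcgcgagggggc
Counted from the start, the Gsta3 motif lies at -121 to -113, the Prdx1 motif at -133 to -125 on the opposite strand, and the TGAGTCAGC of Srxn1 at -45 to -37. Gstp1 and Gstp2, which neighbour each other, carry TGAGTCAGC at -74 to -66 and at -89 to -81, and 159 of their 250 bases lie in runs of at least 10 shared bases. Among transferases with a window, 5 of the 12 that rose in g KO arrays and 5 of the 10 that were not called held a motif; in the NRF2 set these numbers were 3 of 4 that fell and 3 of 6 not called. A match in letters is a description of the window and does not show that a factor binds there. The motif shares are descriptive and were not tested. The NRF2 set was picked as known targets or regulators of NRF2, and similar neighbours such as Gstp1 and Gstp2 count separately.

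Olfm2 itself, the deleted gene, had log2 signals of 2.67 to 3.58 in sc KO arrays against 4.28 to 5.25 in sc WT arrays, and of 3.36 to 3.72 in g KO arrays against 4.08 to 4.60 in g WT arrays. The genotypes did not overlap in either depot, and Olfm2 passed the test in both (adjusted p = 0.000152 in sc and 0.00784 in g). Its probe is dim: it lay below the median of the negative control probes, which was between 4.45 and 4.84, on all 10 KO arrays, on 5 of 5 g WT arrays and on 2 of 5 sc WT arrays. No fold is given, and in g the call rests on signals below that median in both genotypes. All arrays carried adipocyte transcripts, with a mean over 15 mature adipocyte markers between 10.9 and 11.8.

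Albumin, the main secreted protein of hepatocytes, split the arrays within groups. Alb had log2 signals of 12.35, 8.06, 8.65, 10.83 and 9.22 in sc KO arrays (arrays sc300KO, sc306KO, sc317KO, sc318KO and sc320KO, the order of all KO values here), against 7.23, 8.48, 6.94, 6.65 and 7.39 in sc WT arrays (sc286WT, sc287WT, sc307WT, sc308WT and sc309WT, the order of all WT values). In g, with the same numbers in the array names, it had 7.81, 12.21, 12.12, 10.62 and 11.67 in KO arrays, against 10.84, 7.17, 6.48, 11.96 and 7.90 in WT arrays. The genotypes overlapped in both depots. The KO minus WT difference was 2.48 in sc (adjusted p = 0.359) and 2.02 in g (adjusted p = 0.235), and limma did not call the gene. A two-sided exact permutation test of the arrays gave unadjusted p = 0.0159 in sc and 0.167 in g for Alb. For the mean of the hepatocyte markers described next it gave 0.0952 in sc and 0.111 in g. The mean over 15 measured hepatocyte markers was above 7 on 8 arrays, 2 of sc KO, 0 of sc WT, 4 of g KO and 2 of g WT, where it ranged from 7.51 to 10.29; on the other 12 it was between 5.01 and 5.99. Every one of the 15 markers had a higher mean in KO than in WT arrays in both depots (median differences 1.61 in sc and 1.91 in g), while limma called 0 of them in either depot, with 1 in sc and 7 in g at an unadjusted p under 0.05.

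Macrophage markers moved with genotype and depot without such a split. The mean over 18 of them was 8.70 to 9.64 in g KO arrays, against 9.92 to 10.46 in g WT arrays, and the groups did not overlap. In sc it was 8.11 to 8.63 in KO arrays and 8.53 to 8.84 in WT arrays, with overlap. There 17 of the 18 had a lower mean in KO arrays (median difference -0.49), with 10 at an unadjusted p under 0.05 in limma. Limma called 1 of them in sc, against 0.677% of all genes. The two-sided exact permutation test of the macrophage mean gave unadjusted p = 0.0238 in sc and 0.00794 in g. Of the 18 markers 17 fell in g KO arrays (median difference of the list -1.07) and 1, Cd163, rose. All 9 mast cell markers fell there too (median -1.70), and 9 of 15 mature adipocyte markers rose (median 0.45). Limma called 11.3% of all genes in that comparison. In RNA of a whole sample, fewer cells of a type and less RNA per cell cannot be told apart.

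**Figure D1:**
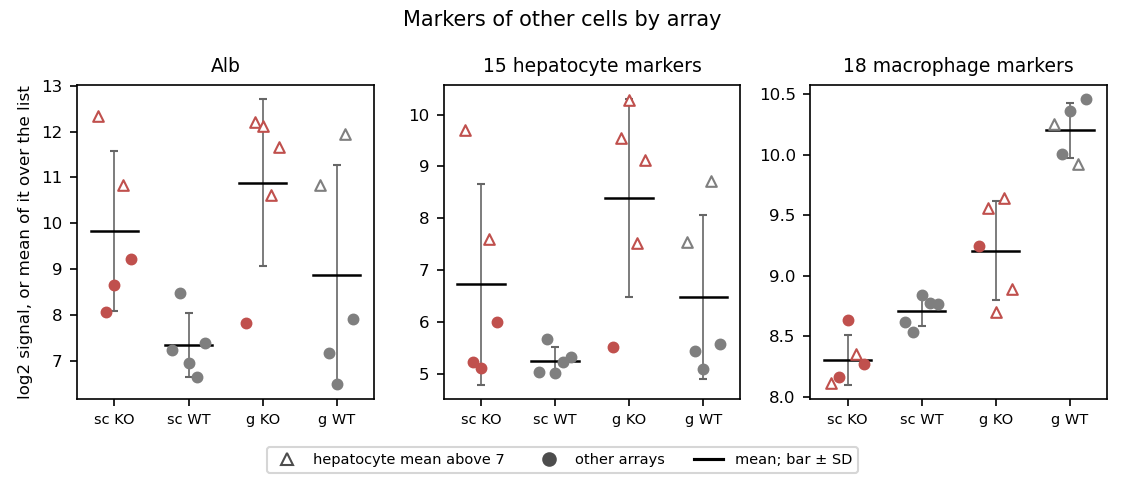
Alb, the mean of 15 hepatocyte markers and the mean of 18 macrophage markers on the log2 scale, 1 point per array, in the groups sc KO, sc WT, g KO and g WT (black line mean, bar ± SD, n = 5). Open triangles are the 8 arrays with a hepatocyte mean above 7, and the macrophage means of g KO arrays (8.70 to 9.64) all lie below those of g WT arrays (9.92 to 10.46).

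In the g depot the called transferases were higher in KO than in WT arrays, and the called genes of the NRF2 set were lower. Of 37 members 18 were called in KO minus WT (48.6%), where the background was 11.3% of all genes (5.01% higher and 6.27% lower). All 13 transferases among them rose and 0 fell, at an adjusted p under 0.05 in limma; 15 of the 24 had an unadjusted p under 0.05. The 5 others, Akr1b8, Hmox1, Srxn1, Txnrd1 and Prdx1, fell, and none of the 13 genes named by symbol rose, with 6 of these at an unadjusted p under 0.05. The median difference was 0.50 over the 24 transferases, of which 21 were above 0, and -0.37 over the 13 others, of which 10 were below 0, beside 0.02 over all genes. The 2 sets also separated by array: 9 transferases were higher in every KO array than in every WT array, against 4.68% of all genes, and 3 of the NRF2 set were lower in the same sense, against 5.73% (10.4% in either direction). Gsto2, counted among the 13 called and the 9 without overlap, lay below the negative control median on all arrays. The median over the 24 also holds the dim genes Gsta2, Gsto2, Gstp3 and Gstt4.

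Of the 7 transferases of the mu class, cytosolic enzymes of detoxification, 4 rose in g KO arrays. Gstm4 had log2 signals of 9.26, 8.63, 8.74, 9.004 and 8.96 in g KO arrays, against 8.09, 8.10, 7.72, 7.83 and 7.90 in g WT arrays. No KO array came near the WT range, and the difference was 0.99 ± 0.12 (SE), 1.99-fold higher (adjusted p = 6.55e-05). Gstm1, a mu enzyme abundant in mouse liver and an NRF2 target there, had 12.21, 11.78, 11.71, 12.04 and 11.75 in g KO arrays, against 11.38, 11.39, 10.98, 11.47 and 10.98 in g WT arrays. Its groups did not overlap either, and it was 1.58-fold higher (log2 difference 0.66 ± 0.13, adjusted p = 0.00208). Gstm6 had 8.11, 7.71, 7.80, 7.85 and 8.40 in g KO arrays, against 6.83, 6.91, 6.42, 7.71 and 6.74 in g WT arrays, where g308 WT was level with the lowest KO array, and it rose by 1.05 ± 0.23 (2.07-fold, adjusted p = 0.005). Gstm2 rose by 0.53 ± 0.15 (1.44-fold) with no overlap (adjusted p = 0.0217). The other 3 were not called: Gstm3 (0.62, adjusted p = 0.0585), Gstm5 (0.44, adjusted p = 0.253) and Gstm7 (0.46, adjusted p = 0.485), although all 7 mu genes had differences above 0. These 7 genes lie beside each other on chromosome 3 in the GRCm38.p6 table with no other protein-coding gene between them, and they are similar in sequence. Probe sequences were not used here, so how far the probes tell the mu genes apart was not tested.

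The kappa and zeta transferases and 2 of the 3 microsomal ones rose in g KO arrays without overlap between the genotypes. Gstk1, a mitochondrial and peroxisomal transferase also known as a factor in the assembly of adiponectin, had 9.27, 9.42, 9.52, 9.26 and 9.37 in g KO arrays, against 8.65, 8.86, 8.41, 8.75 and 8.32 in g WT arrays. Every KO array was above every WT array, with a difference of 0.77 ± 0.12 (1.70-fold higher, adjusted p = 0.000357). Mgst3, a membrane enzyme of the MAPEG family with transferase and peroxidase activity, had 9.64, 9.13, 9.42, 9.13 and 9.43 in g KO arrays, against 8.75, 8.80, 8.58, 8.46 and 8.40 in g WT arrays. It did not overlap and was 1.68-fold higher (0.75 ± 0.12, adjusted p = 0.000484). Gstz1, which isomerises maleylacetoacetate in tyrosine breakdown, had 11.42, 11.57, 11.58, 11.22 and 11.46 in g KO arrays, against 10.87, 11.17, 10.54, 11.05 and 10.70 in g WT arrays. Its groups did not overlap, and it rose by 0.58 ± 0.11 (adjusted p = 0.0021). Mgst1, which protects membranes of the endoplasmic reticulum and mitochondria, had 12.15, 12.17, 12.08, 12.18 and 12.16 in g KO arrays, against 11.88, 11.82, 11.89, 11.96 and 11.76 in g WT arrays. That was the narrowest spread of the called transferases, again without overlap, for a rise of 0.29 ± 0.08 (1.22-fold, adjusted p = 0.0173). Mgst2, the microsomal enzyme that can make leukotriene C4, gave -0.07 (adjusted p = 0.747).

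Of the 3 alpha transferases 2 rose, with a wide spread between arrays. Gsta3, an alpha enzyme abundant in liver, had 9.06, 10.07, 10.91, 9.62 and 10.57 in g KO arrays, against 8.64, 8.82, 8.51, 9.55 and 8.48 in g WT arrays. The ranges overlapped, since the g300 KO array was below the g308 WT array; g300 KO was the KO array with a low hepatocyte mean (5.51) and g308 WT the WT array with the highest (8.73). The difference was 1.24 ± 0.31 (2.37-fold higher, adjusted p = 0.0112), and 0.69 (adjusted p = 0.0355) with the hepatocyte mean as a covariate. Gsta4, which prefers the lipid aldehyde hydroxynonenal, had 6.62, 7.33, 8.10, 7.01 and 7.69 in g KO arrays, against 6.18, 6.71, 6.60, 6.84 and 6.26 in g WT arrays. Its order of arrays was the same as for Gsta3 within the KO group, and it rose by 0.83 ± 0.24 (adjusted p = 0.0253) and gave 0.66 (adjusted p = 0.142) with that covariate. Gsta2 was below the negative control median on all 20 arrays and was not called.

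Both abundant pi transferases rose in g KO arrays. Gstp1, which conjugates electrophiles and restrains the kinase JNK, had 9.51, 9.56, 10.36, 9.28 and 9.71 in g KO arrays, against 8.82, 9.20, 8.82, 8.94 and 8.70 in g WT arrays. No arrays overlapped, and it was 1.73-fold higher (0.79 ± 0.16, adjusted p = 0.00235). Gstp2, its neighbour, rose by 0.51 ± 0.15 with overlap (adjusted p = 0.0329), and these near copies may share probe signal. The theta genes Gstt1 (0.32, adjusted p = 0.209), Gstt2 (0.36, adjusted p = 0.144), Gstt3 (0.26, adjusted p = 0.608) and Gstt4 (0.03, adjusted p = 0.924) were not called, nor was Gstp3 (-0.29, adjusted p = 0.719) or the omega gene Gsto1 (-0.02, adjusted p = 0.964). Gsto2 passed the test (adjusted p = 0.0177), but it was below the negative control median on all 20 arrays, so no fold is given.

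**Figure D2:**
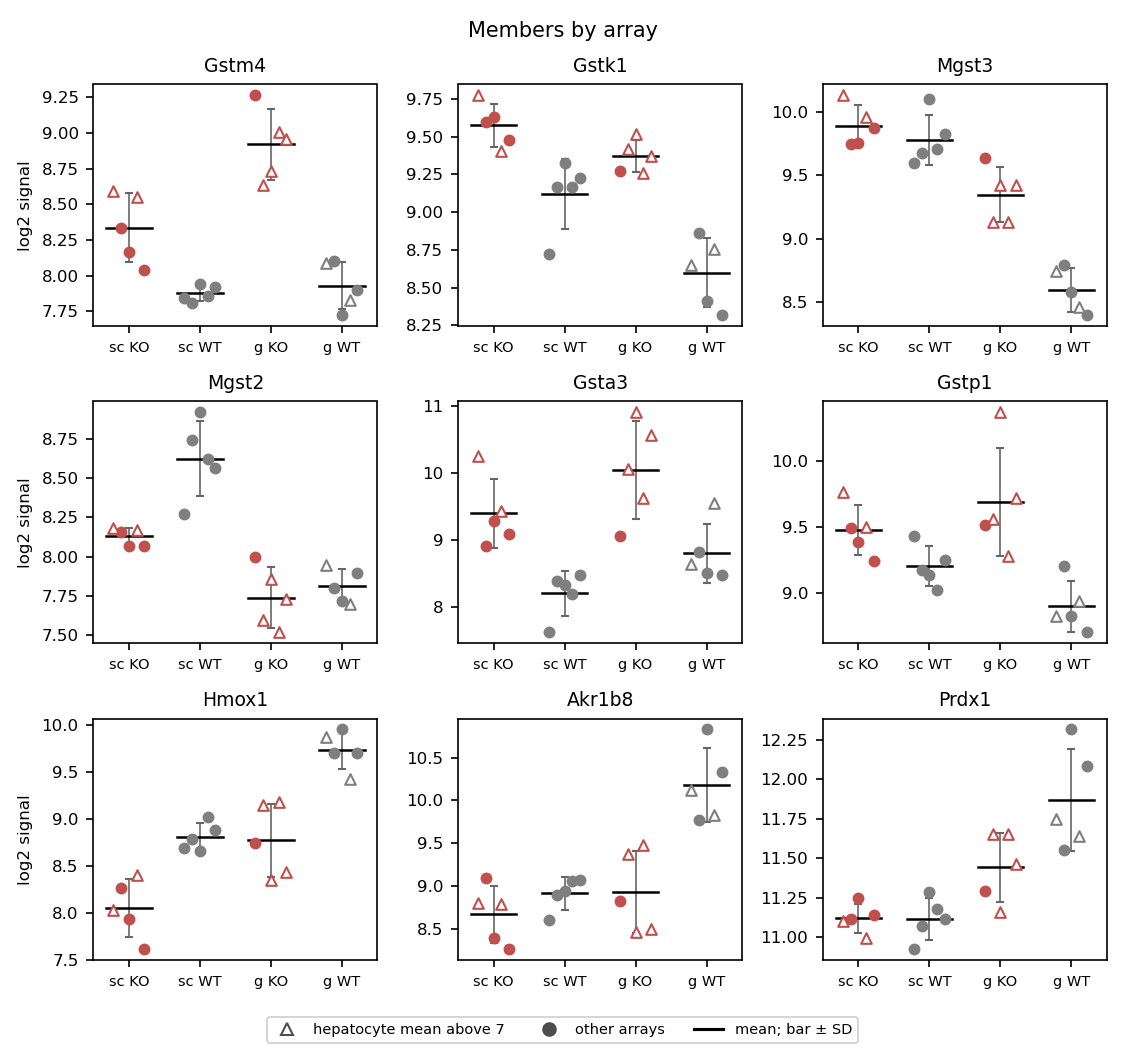
Log2 signals of 9 members, 1 point per array, in the groups sc KO, sc WT, g KO and g WT (black line mean, bar ± SD, n = 5; open triangles, arrays with a hepatocyte mean above 7). Gstm4, Gstk1, Mgst3 and Gstp1 are higher in every g KO than in every g WT array, Hmox1 and Akr1b8 are lower in every one, and the Gsta3 arrays overlap at g300 KO (9.06) and g308 WT (9.55).

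Akr1b8 and Hmox1 fell most among the NRF2 targets. Akr1b8, an aldo-keto reductase of aldehydes, had 8.82, 9.37, 8.46, 9.48 and 8.49 in g KO arrays, against 10.13, 9.77, 10.83, 9.83 and 10.33 in g WT arrays. The KO arrays were all below the WT arrays, and the gene was 2.39-fold lower (-1.25 ± 0.22, adjusted p = 0.00099). Hmox1, which breaks down heme and is abundant in macrophages that clear red cells, had 8.75, 9.15, 8.35, 9.18 and 8.43 in g KO arrays, against 9.87, 9.70, 9.95, 9.43 and 9.70 in g WT arrays. It too was lower in every KO array, 1.94-fold (-0.96 ± 0.17, adjusted p = 0.000891).

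The thioredoxin and peroxiredoxin genes, which reduce peroxides and the proteins that do so, fell by less, all 3 of 3. Txnrd1, thioredoxin reductase of the cytosol, had 8.75, 8.91, 8.32, 8.89 and 8.43 in g KO arrays, against 9.13, 8.93, 9.54, 9.005 and 9.20 in g WT arrays. The highest KO array was just below the lowest WT array, and the difference was -0.50 ± 0.14 (adjusted p = 0.0212). Srxn1, sulfiredoxin, which repairs overoxidised peroxiredoxins, had 7.48, 7.75, 6.83, 7.88 and 7.07 in g KO arrays, against 7.96, 7.91, 8.54, 7.71 and 8.01 in g WT arrays. The g306 KO and g318 KO arrays lay inside the WT range, and the difference was -0.63 ± 0.20 (1.54-fold lower, adjusted p = 0.0479). Prdx1, a cytosolic peroxiredoxin, had 11.29, 11.65, 11.16, 11.65 and 11.46 in g KO arrays, against 11.75, 11.55, 12.31, 11.64 and 12.08 in g WT arrays. The 2 highest KO arrays, g306 KO and g318 KO, lay above the 2 lowest WT arrays, g287 WT and g308 WT, and the difference was -0.42 ± 0.13 (1.34-fold lower, adjusted p = 0.0398). Macrophage markers were lower on the same arrays, as given above. When the fit held the macrophage mean, the differences were 0.015 for Txnrd1, 0.018 for Srxn1, 0.14 for Prdx1, -0.30 for Hmox1 and -0.38 for Akr1b8, and 0 of the 37 members and 1 of all genes were called. The transferases that rose also lost their calls with that covariate. Gstp1 gave 0.046, Gsta3 0.13 and Gstp2 -0.12, and the other called transferases stayed above 0. Gstm4 gave 0.905 or more in every alternative fit. That covariate does not overlap between the genotypes in g, so a fit with it cannot tell the knockout and the macrophage level apart.

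The member genes of glutathione supply, and Nfe2l2, Keap1 and Nqo1, were not called in g. Limma called 0 of the 5 supply genes, with 1 at an unadjusted p under 0.05. The glutamate-cysteine ligase subunits Gclc (0.08, adjusted p = 0.675) and Gclm (-0.33, adjusted p = 0.209) catalyse the limiting step of glutathione synthesis. Glutathione synthase Gss gave 0.10 (adjusted p = 0.79), glutathione reductase Gsr -0.37 (adjusted p = 0.101) and the cystine carrier Slc7a11 -0.48 (adjusted p = 0.394). Nfe2l2, which encodes NRF2, had 7.58, 7.59, 7.69, 7.83 and 7.41 in g KO arrays, against 7.65, 7.78, 7.64, 7.52 and 7.76 in g WT arrays, with a difference of -0.05 (95% interval -0.25 to 0.14). Its sensor Keap1 gave 0.16 (interval -0.08 to 0.40) and the quinone reductase Nqo1 -0.32 (interval -0.81 to 0.16).

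The g calls were set against the hepatocyte signal, whose part in them was not tested beyond the following values. With the hepatocyte mean as a covariate 11 of the 18 were called, namely Gsta3, Gstk1, Gstm1, Gstm4, Gstm6, Gsto2, Gstp1, Gstz1, Mgst3, Akr1b8 and Hmox1. The 7 others were not called and gave 0.66 for Gsta4 (0.83 without the covariate), 0.45 for Gstm2 (0.53), 0.40 for Gstp2 (0.51), 0.25 for Mgst1 (0.29), -0.35 for Prdx1 (-0.42), -0.55 for Srxn1 (-0.63) and -0.43 for Txnrd1 (-0.50). When the 8 hepatocyte-high arrays were left out, 1 g KO and 3 g WT arrays remained; Gstm4 (1.36, adjusted p = 0.0151) and Gstm1 (1.09, adjusted p = 0.0432) were called. Of those not called, Mgst3 gave 1.04, Gstk1 0.74, Gstz1 0.62, Mgst1 0.33, Gstm2 0.77, Gstm6 1.42, Akr1b8 -1.49 and Hmox1 -1.04, while Gsta3 was at 0.45 and Gsta4 at 0.10. The remaining KO array, g300 KO, had an Alb signal of 7.81. Of the called transferases, Gstm4 (9.26), Gstm1 (12.21), Gstm2 (10.34) and Mgst3 (9.64) were the highest there of all g arrays. Gsta3 (9.06) and Gsta4 (6.62) were the lowest there of the g KO arrays.

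**Figure D3:**
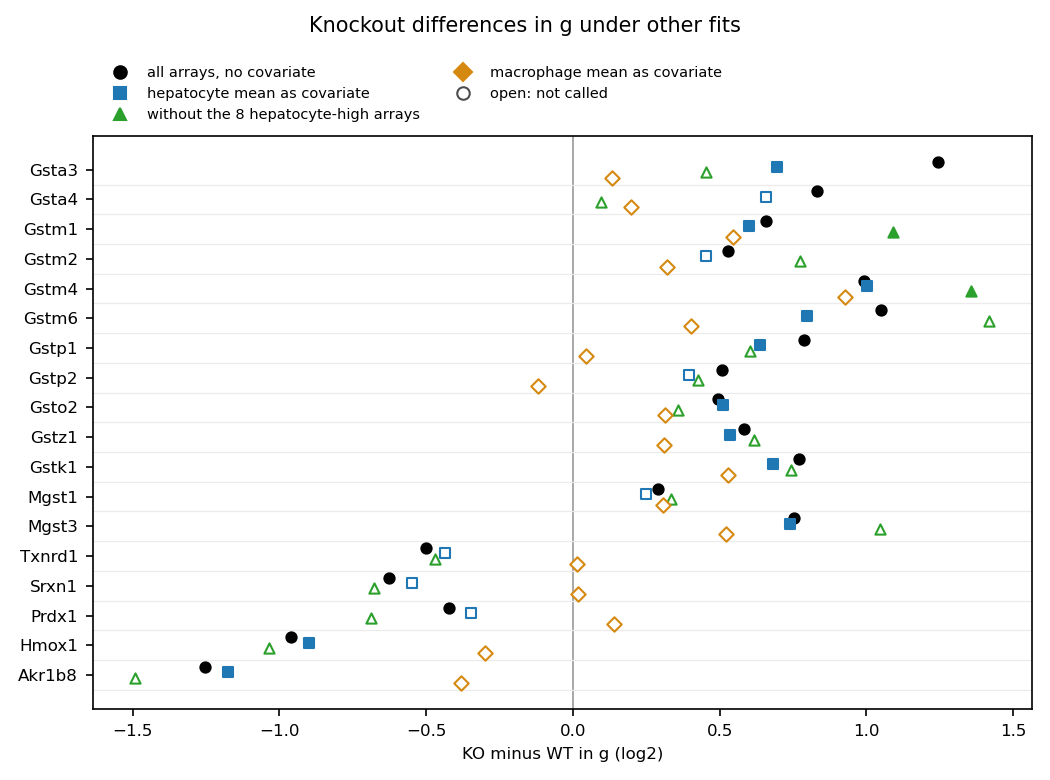
KO minus WT differences in g (log2) of the 18 called members under 4 fits; open symbols were not called. With the hepatocyte mean as a covariate 11 stay filled, without the 8 hepatocyte-high arrays Gstm1 and Gstm4 do, and under the macrophage covariate 0 do and Gstp2, Prdx1, Srxn1 and Txnrd1 lie on the other side of 0.

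In the sc depot 4 of 37 members were called in KO minus WT (10.8%), where the background was 0.677% of all genes (0.297% higher and 0.379% lower). Gstm1 and Gstt1 rose, and Hmox1 and Mgst2 fell. The transferases had a median of 0.28, with 22 of 24 above 0, and the NRF2 set one of -0.07, beside 0.01 over all genes. In 7 transferases every KO array was above every WT array, against 1.41% of all genes, and in Mgst2 and Hmox1 below, against 1.53% (2.94% in either direction). The 7 were Gstm1, Gstt1 and, not called, Gsta3 (1.19, adjusted p = 0.0818), Gsta4 (0.88, adjusted p = 0.0968), Gstk1 (0.46, adjusted p = 0.0869), Gstm4 (0.46, adjusted p = 0.0938) and Gstm7 (0.80, adjusted p = 0.44).

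Gstm1 had 11.69, 11.23, 11.29, 11.50 and 11.14 in sc KO arrays, against 10.73, 10.88, 10.58, 10.71 and 10.76 in sc WT arrays. The groups did not overlap, and it was 1.55-fold higher (0.64 ± 0.13, adjusted p = 0.0199). Gstt1, a theta enzyme that acts on halogenated compounds, had 9.48, 8.67, 8.99, 8.77 and 8.99 in sc KO arrays, against 7.97, 8.23, 8.36, 8.33 and 8.34 in sc WT arrays. All KO arrays were higher, the sc300KO array most, and the difference was 0.73 ± 0.16 (1.66-fold, adjusted p = 0.0313). That array also had the highest Alb signal of all 20.

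Hmox1 had 8.03, 8.26, 7.94, 8.40 and 7.61 in sc KO arrays, against 8.69, 8.79, 8.66, 9.02 and 8.88 in sc WT arrays. It was lower in every KO array, 1.69-fold (-0.76 ± 0.17, adjusted p = 0.0371), so Hmox1 fell in both depots. The macrophage mean averaged 8.31 in sc KO and 8.71 in sc WT arrays, and its part in the Hmox1 difference was not tested. Mgst2 had 8.18, 8.16, 8.07, 8.17 and 8.07 in sc KO arrays, against 8.27, 8.74, 8.92, 8.62 and 8.56 in sc WT arrays. The KO arrays lay close together just below the lowest WT array, sc286WT, an array with high skeletal muscle and lymphocyte signal, and Mgst2 was 1.41-fold lower (-0.50 ± 0.11, adjusted p = 0.0366). Akr1b8 (-0.25, adjusted p = 0.77), Srxn1 (-0.22, adjusted p = 0.78), Txnrd1 (-0.07, adjusted p = 0.915) and Prdx1 (0.01, adjusted p = 0.993), which fell in g, were not called in sc, nor were Nfe2l2 (0.16, adjusted p = 0.576), Keap1 (-0.05, adjusted p = 0.938), Nqo1 (-0.17, adjusted p = 0.868), Gclc (0.20, adjusted p = 0.51), Gclm (-0.17, adjusted p = 0.782), Gss (0.08, adjusted p = 0.924), Gsr (-0.08, adjusted p = 0.91) or Slc7a11 (0.07, adjusted p = 0.97).

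The sc calls depended on the covariate and on single arrays: 0 of 37 members were called with the hepatocyte mean as a covariate, where Gstm1 gave 0.59 (adjusted p = 0.0685) and Hmox1 -0.71 (adjusted p = 0.0983), and 0 without any one of sc300KO, sc307WT or sc308WT. Without sc287WT, sc309WT, sc317KO or sc320KO 1 was called. With the hepatocyte-high arrays left out, 3 sc KO and 5 sc WT arrays remained and 4 members were called, 2 of them in the full set too: Gstt1 (0.64, adjusted p = 0.0426) and Hmox1 (-0.87, adjusted p = 0.0225). Gstm1 gave 0.48 (adjusted p = 0.0932) and Mgst2 -0.53 (adjusted p = 0.103) there.

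**Figure D4:**
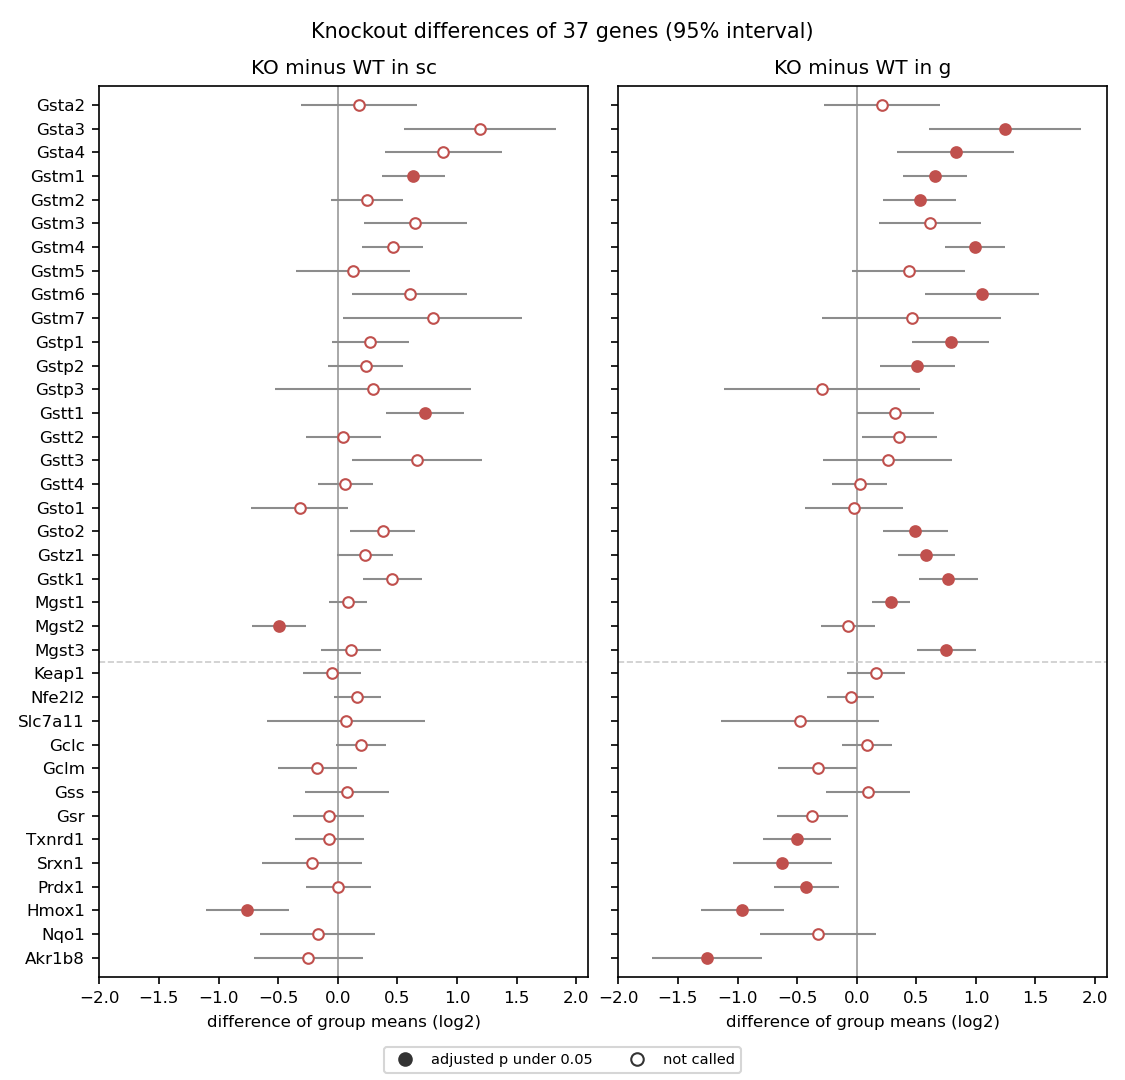
KO minus WT differences of all 37 members in sc (left) and g (right), as log2 differences of group means with 95% intervals; filled points passed an adjusted p of 0.05, and the dashed line parts the 24 transferases from the 13 genes of the NRF2 set. In g 13 transferases are filled to the right of 0 and 5 NRF2 targets to the left; in sc 4 points are filled.

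Whether the knockout effect differed between depots was tested directly, as the g effect minus the sc effect. Limma called 0 of 37 members and 15 of all genes (0.0769%, with 0.041% higher and 0.0359% lower), and 8 members had an unadjusted p under 0.05. The 3 members with the smallest unadjusted p were Mgst3 (0.64 ± 0.17, adjusted p = 0.149), Akr1b8 (-1.01 ± 0.31, adjusted p = 0.19) and Gstm4 (0.53 ± 0.17, adjusted p = 0.204). A call in g without one in sc was therefore not shown to be a difference between depots for any member. Gsta3 gave 0.05 (95% interval -0.86 to 0.95), Gsta4 -0.05 (-0.75 to 0.64), Gstm1 0.02 (-0.35 to 0.40) and Gstm3 -0.04 (-0.64 to 0.57).

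Between depots in WT, 15 members were called (40.5%), where the background was 17.8% of all genes, 9.3% higher and 8.48% lower in g. The NRF2 set was higher in g: 7 of 13 genes passed the test and 0 were lower (8 had an unadjusted p under 0.05), with a median of 0.51 beside -0.04 over all genes. Of the transferases 2 were higher and 6 lower, with a median of -0.15. Every array of g was above every array of sc in all 7, against 8.73% of all genes, while over all members 10 were higher and 3 lower in that sense, against 7.36% lower and 16.1% in either direction. These differences share the g WT arrays with the knockout comparison in g.

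Akr1b8 averaged 10.18 ± 0.43 in g WT and 8.91 ± 0.19 in sc WT arrays (SD, n = 5 each), a difference of 1.27 ± 0.22 (SE; adjusted p = 0.000375), and its groups did not overlap. Hmox1 (0.92, adjusted p = 0.000528), Srxn1 (0.88, adjusted p = 0.00376), Prdx1 (0.75, adjusted p = 0.000375), Txnrd1 (0.51, adjusted p = 0.0127), the ligase subunit Gclm (0.62, adjusted p = 0.00854) and Nfe2l2 (0.48, adjusted p = 0.00118) were also higher in every g WT array than in every sc WT array. On these arrays 17 of 18 macrophage markers were higher in g (median 1.55) and 12 of 15 mature adipocyte markers lower. With the macrophage mean as a covariate 0 members and 3 of all genes were called in this comparison. That mean does not overlap between g WT (9.92 to 10.46) and sc WT arrays (8.53 to 8.84). A fit with it therefore cannot tell the depot and the macrophage level apart. Gclc (0.06), Gss (0.10), Gsr (0.33), Slc7a11 (0.53), Nqo1 (0.01) and Keap1 (-0.13) were not called.

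All 3 microsomal transferases were lower in g WT than in sc WT arrays. Mgst3 averaged 8.60 ± 0.17 in g WT and 9.78 ± 0.20 in sc WT arrays, 2.27-fold lower (-1.18 ± 0.12, adjusted p = 1.63e-06). Mgst2 averaged 7.81 ± 0.11 in g WT and 8.62 ± 0.24 in sc WT arrays, 1.76-fold lower (-0.81 ± 0.11, adjusted p = 2.67e-05). Neither overlapped, while Mgst1 (-0.32, adjusted p = 0.00531), Gstk1 (-0.52, adjusted p = 0.00388) and Gstz1 (-0.51, adjusted p = 0.00317) were lower with overlap and Gstt2 (-0.47, adjusted p = 0.0371) without. Gstm1 (0.51, adjusted p = 0.00786) and Gstm7 (1.15, adjusted p = 0.031) were higher in g.

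Between depots in KO, 7 members were called (18.9%), where the background was 4.13% of all genes, 2.87% higher and 1.27% lower in g. Groups did not overlap for 2 higher and 3 lower members, against 2.31% and 1.95% of all genes (4.26% in either direction). Hmox1 was higher in g KO (8.77 ± 0.39) than in sc KO arrays (8.05 ± 0.31; SD, n = 5 each), by 0.72 ± 0.17 (adjusted p = 0.0152), as were Gstm1 (0.53, adjusted p = 0.02), Gstm4 (0.58, adjusted p = 0.00718) and Gstm6 (0.84, adjusted p = 0.0431). Gstt1 (-0.74, adjusted p = 0.00778), Mgst3 (-0.54, adjusted p = 0.011) and Mgst2 (-0.39, adjusted p = 0.0458) were lower in g. These calls changed with the setting: 0 members were called in the fit of the 2 groups alone, and 3 without sc320KO or without g318 KO. Over 25 alternatives Gstm6 was called in 7 and Mgst2 in 11. The other NRF2 targets that differed between depots in WT were not called in KO arrays: Akr1b8 0.26, Srxn1 0.47, Prdx1 0.32, Txnrd1 0.08, Gclm 0.46 and Nfe2l2 0.26. The test of these differences between genotypes is the one given above for the depots, and it called 0 members.

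**Figure D5:**
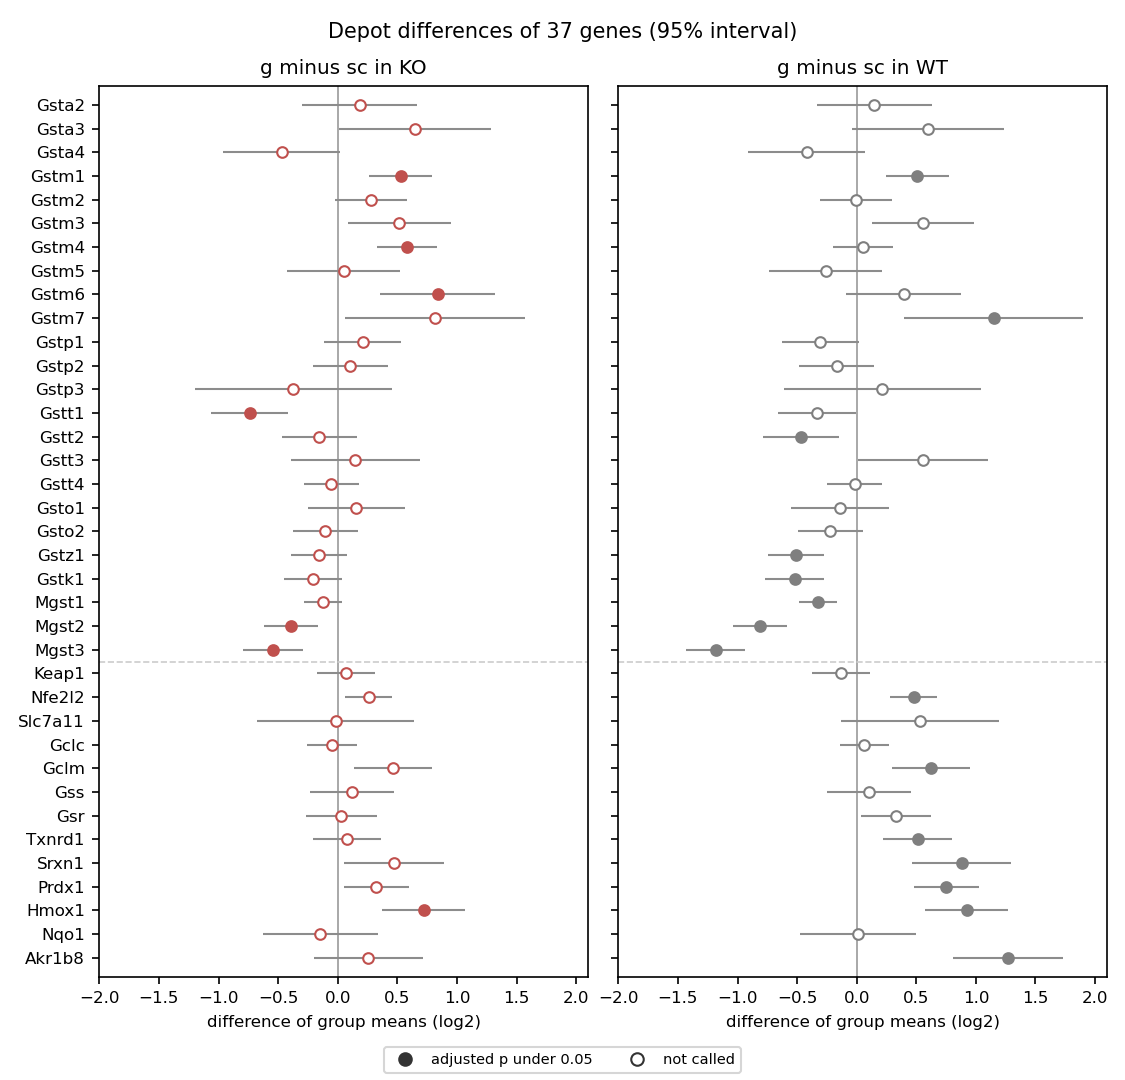
g minus sc differences of all 37 members in KO (left) and WT (right), as log2 differences of group means with 95% intervals; filled points passed an adjusted p of 0.05, and the dashed line parts the 24 transferases from the 13 genes of the NRF2 set. In WT 7 of the NRF2 set are filled to the right of 0 and Mgst1, Mgst2 and Mgst3 to the left; in KO Hmox1 is the 1 filled point of the NRF2 set.

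Related genes that are no members were counted from lists, again against 11.3% of all genes called in KO minus WT in g and 0.677% in sc. Of 19 other glutathione enzymes 2 rose and 2 fell in g KO arrays. The glyoxalase Hagh rose by 0.59 (adjusted p = 0.00132), and Gpx4, which reduces lipid hydroperoxides in membranes, by 0.47 (adjusted p = 0.00284). Glutaredoxin Glrx (-0.69, adjusted p = 0.00149) and the peptidase Anpep (-0.98, adjusted p = 0.00548) fell. In sc the secreted peroxidase Gpx3 rose by 0.96 (adjusted p = 0.00133), the 1 call of that list.

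Of 14 genes with a glutathione transferase fold or of the MAPEG family 1 rose and 3 fell in g KO arrays. Hpgds, the sigma-class transferase that makes prostaglandin D2 and is typical of mast cells and macrophages, averaged 8.07 in g KO and 10.21 in g WT arrays (-2.14 ± 0.32, adjusted p = 0.000289). Alox5ap, which serves leukotriene synthesis, fell by 0.59 (adjusted p = 0.00974) and Clic1 by 0.91 (adjusted p = 0.00597), while the prostaglandin E synthase Ptges rose by 0.96 (adjusted p = 0.00129).

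Of 24 other NRF2 targets 2 rose and 3 fell in g KO arrays: thioredoxin Txn1 (-0.37, adjusted p = 0.0119), biliverdin reductase Blvrb (-0.51, adjusted p = 0.0183) and Esd (-0.51, adjusted p = 0.0193) fell, and the aldehyde oxidase Aox1 rose (0.53, adjusted p = 0.0213). In g WT against sc WT arrays 8 of these 24 were higher and 2 lower, among them Ftl1, a ferritin chain (0.73, adjusted p = 0.000109), beside 17.8% of all genes. Of 13 other thioredoxin, peroxiredoxin and superoxide dismutase genes Sod1 (0.31, adjusted p = 0.0499) and Sesn3 (0.33, adjusted p = 0.0273) rose and Sesn1 (-0.63, adjusted p = 0.00409) fell in g KO arrays. Of 14 regulators of NRF2 the repressor Bach1 was the 1 called there (-0.34, adjusted p = 0.036).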

How the data were processed

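Total RNA of 20 samples was measured on expression arrays; 100 ng each was labelled, per the labels' protocols. The deposited values are log2 signals that the authors normalised by RMA, per the submitters' processing notes, which also name limma; the sources used here give neither versions nor the array build, nor whether all arrays were normalised together. Of 28846 probes 6640 controls were left out; 19572 carried 1 gene symbol, and the brightest probe on average stood for each of the 55 genes that had more than 1, leaving 19505 genes. R 4.3.3 with limma 3.58.1 fitted a mean for each of 4 groups (16 residual degrees of freedom). The 5 comparisons were KO against WT in sc and in g, the difference of these effects, and g against sc in each genotype. Limma p-values are two-sided, adjusted after Benjamini and Hochberg over all genes, and called means under 0.05. Permutation p-values, given for Alb and for the hepatocyte, macrophage, lymphocyte and skeletal muscle means, are exact and unadjusted. The fit was also run on simulated data with independent noise for each gene, which does not cover signals shared between genes. SE is the fit's standard error.

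Members and lists were chosen with earlier results of these data known. Every member was named, with values for those called; of each related list, up to the 4 called genes with the smallest p in a comparison could be named, and a few are printed. Cd163 was named after its values were seen. Markers of lymphocytes, skeletal muscle, endothelium, fibroblasts and mesothelium were also read. Arrays hold no counts, and their number limits the precision. Of title numbers shared by sc and g arrays, residuals correlated with r between -0.461 and 0.142, so the numbers were not used to pair samples. The alternatives were marker covariates, left-out arrays, array weights, renewed normalisation or centring, other choices of probes and variance prior, a filter on dim probes, the 2-group fit and the title number as a block. The design text names PKP2 beside sc, while the labels give Olfm2 throughout; the labels were used.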

Additional observations from a re-analysis of the deposited data

Results flagged for a closer look

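In 148 sets of 5 arrays, the 37 members in 4 groups, 13 had 1 array far from its nearest neighbour, where the gap, as a share of the range of the set, passed Dixon's critical value. Chance alone gives about 1 such set in 20. In g KO there were 7, in sc WT 4, in sc KO 2 and in g WT 0. The g317 KO array, with the highest hepatocyte mean (10.29), stood apart 4 times: high for Gclc (7.93, others up to 7.70) and Gstt1 (8.88, others up to 8.14), and low for Gsto1 (7.77, others from 8.46) and Mgst1 (12.08, others from 12.15). The g320 KO array was high for Gstm5 (8.66, others up to 7.62) and Gstm7 (9.32, others up to 7.84), and g318 KO was low for Gss (6.62, others from 6.91).

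In sc KO the sc300KO array, with the highest Alb signal, was high for Gsta2 (4.44, others up to 3.19) and Mgst1 (12.44, others up to 12.23). In sc WT the sc286WT array, with a skeletal muscle mean of 10.87, was low for Gstk1 (8.72, others from 9.16), Gstm6 (6.001, others from 6.56) and Gsto1 (8.03, others from 8.63), and sc307WT was high for Gstm5 (7.89, others up to 7.44). The part of hepatocyte or muscle RNA in these values was not tested.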

How the results depend on the processing

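Members called were 4 in sc and 18 in g for KO minus WT, 0 for the difference of these effects, and 15 and 7 for g minus sc in WT and KO. Counts that moved by over 1.5 times, with the cause not tested, were these. The sc knockout count was 2 in the fit of the 2 groups alone and 0 with the hepatocyte mean, Alb, the 3 means of hepatocyte, lymphocyte and skeletal muscle markers, or the macrophage mean as covariates. It was also 0 without the 4 arrays high in lymphocyte or muscle signal, an alternative chosen after seeing the data. The g knockout count was 11 with the hepatocyte mean, 11 with Alb, 2 without the 8 hepatocyte-high arrays (1 KO array left, assumed to vary like the other groups) and 0 with the macrophage mean. The WT depot count was 0 with the macrophage mean, which does not overlap between the depots in WT. The KO depot count was 0 in the 2-group fit, 4 with the hepatocyte mean, 2 without the hepatocyte-high arrays, 1 with the macrophage mean and 3 without the lymphocyte or muscle arrays. Leaving out 1 array at a time gave 0 to 4 (sc), 12 to 19 (g), 0 to 0 (difference), 13 to 15 (WT depots) and 3 to 7 (KO depots). The lowest g count came without g309 WT, and KO depot counts under 5 without sc306KO, sc320KO, g306 KO or g318 KO.

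Of 1081 recomputed values of called members 842 kept direction and call, 229 lost the call and 10 turned sign, all 10 with the macrophage mean: in g KO minus WT Gstp2 (-0.12), Prdx1 (0.14), Srxn1 (0.018) and Txnrd1 (0.015), and in g minus sc in WT Akr1b8 (-0.047), Hmox1 (-0.069), Prdx1 (-0.10), Srxn1 (-0.084), Txnrd1 (-0.27) and Gstt2 (0.21). The filter on dim probes left out Gsta2, Gsto2, Gstp3 and Gstt4. With the title number as a replicate block (consensus correlation 0.0863) the counts were 4, 18, 0, 16 and 7; 3 of 10 arrays correlated best with their own number.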

Other observations

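Signals of other cells differed between the depots beyond the macrophage markers. The mean over 8 mesothelial markers was 6.11 to 8.06 in g KO and 6.21 to 7.11 in g WT arrays, against 4.93 to 5.08 in sc KO and 4.76 to 5.22 in sc WT arrays. The mean over 9 mast cell markers was 5.36 to 6.22 in g KO and 7.22 to 8.14 in g WT arrays, without overlap, and 5.45 to 5.999 in sc KO and 5.80 to 6.31 in sc WT arrays. Lymphocyte or skeletal muscle means above 7 were found on 4 sc arrays, 2 of KO and 2 of WT, and on 0 g arrays. The array with the highest skeletal muscle mean, sc286WT (10.87), had the lowest signals of sc WT for Gstk1, Gstm6, Gsto1 and Mgst1. It was also lowest for further members, among them Gsta3, Gstt1, Gstz1, Akr1b8 and Gclm, and highest for Gstp1, Gstp2 and Gclc. In KO minus WT in g, where limma called 11.3% of all genes, 5 of 9 fibroblast and preadipocyte markers fell (median -0.39). Of 10 endothelial markers 1 rose (median 0.18), which is near that share. Limma called 0 of 14 lymphocyte and 0 of 16 skeletal muscle markers there, and 0 of both lists had an unadjusted p under 0.05. All 14 lymphocyte markers had differences below 0 (median -0.47). Their mean averaged 5.69 in g KO and 6.20 in g WT arrays. The two-sided exact permutation test gave unadjusted p = 0.0238 for that mean and 0.421 for the skeletal muscle mean in g. Of the 8 mesothelial markers 0 were called in that comparison, with 4 at an unadjusted p under 0.05.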
